A study of Mus musculus with 7 samples.

Results

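Immediate early genes are the genes a cell transcribes within minutes of a stimulus, from transcription factors that are already present. The 8 members described here are Fos, Fosb, Jun and Junb (subunits of the AP-1 transcription factor), Egr1 (a zinc finger transcription factor), Atf3 (a stress-induced bZIP factor), Ier2 (a nuclear early response protein) and Dusp1 (a phosphatase that inactivates MAP kinases). Their rows were taken by name from the 22556 genes counted in each of 7 libraries. The rule uses no measured value, but the list was drawn up with earlier results of these libraries known. RNA had been sequenced from the chromatin fraction (ChrRNA-seq), which holds nascent transcripts, so the counts report recent transcription rather than the stored mRNA.

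All libraries came from undifferentiated female mouse embryonic stem cells (mESCs) that are hybrids of 129/Sv (Mus musculus domesticus, Dom) and CAST/EiJ (Cast), derived from the F1 2-1 parental line. In iXist-ChrX-Dom a tetracycline-inducible promoter drives Xist, the RNA that silences the X chromosome in cis, from the Dom X (n = 4 libraries), and in iXist-ChrX-Cast from the Cast X (n = 3). Both lines received 1 µg/mL doxycycline for 10 days, in medium with serum and LIF, on fibroblast feeders removed before harvest. The study lists each line as a single clone, and uninduced cells were not analysed here. The iXist-ChrX-Dom libraries are described as replicate experiments, but whether these or the iXist-ChrX-Cast replicates came from separate cultures is not spelled out, so p-values measure the spread between these libraries, part of which may be technical. The rule also asks for a comparison by replicate number, replicates 1 and 2 (4 libraries) against replicates 3 and 4 (3 libraries, of which iXist-ChrX-Cast contributed replicate 3 alone). The labels name no batch, so these are called the replicate sets and nothing more. For replicates 3 and 4 of iXist-ChrX-Dom the description fields read d1 where titles and treatment give 10 days, so in that line the set and a different induction time cannot be told apart. For replicates 1 and 2 of iXist-ChrX-Cast, the clone named by the files and that named by the labels differ by 1 character, whereas for replicate 3 both give the same name. In that line, then, the set and a different clone cannot be told apart.

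Fos and Jun family proteins pair through leucine zippers to form AP-1. Jun proteins can pair with each other, whereas Fos proteins need a Jun partner. In fibroblasts and neurons, serum and growth factors switch these genes on through ERK, which activates the ternary complex factors bound with SRF, and through kinases that phosphorylate CREB. In mESCs, ERK signalling from FGF4 is known to drive exit from the naive state.

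Libraries held 14877384 to 24309806 counted fragments, of which the 8 genes took 703 to 1233 (0.00427% to 0.00637%). Single members had 25 to 268 fragments per library, and 44.2% to 46.4% of all fragments could be assigned to an allele. The Cast share of Xist itself was 0.0773% to 0.125% for iXist-ChrX-Dom and 94.0% to 94.7% in iXist-ChrX-Cast, so most Xist came from the engineered allele in both lines. No member overlapped another counted gene on either strand. The mESC markers were present (Pou5f1 at a mean of 73.4 CPM in iXist-ChrX-Dom and of 83.5 CPM in iXist-ChrX-Cast). Of the neural list, Sox1 was at 0 in each library and Fabp7 and Olig2 had means under 0.1 CPM, but Nes (10.4 to 25.7 CPM), Pax6 (3.66 to 18.9) and Tubb3 (8.37 to 16.6) were present. Of the fibroblast list, Lum had a mean under 0.1 CPM, but Fbn1 (30.8 to 39.6 CPM) and Col1a2 (9.44 to 15.6) were present. CPM, the unit of level used throughout, is the count scaled to 1000000 fragments of TMM-adjusted library size.

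The proximal promoters of Fos, Fosb, Jun and Junb are shown because these are the members that passed the test between the replicate sets, Fos and Fosb in one direction and Jun and Junb in the other. Each holds 250 bases before to 50 bases after the RefSeq start on GRCm38.p6, the patch release of the mm10 build used for counting, and is written 5′ to 3′ on the gene's strand. Capitals mark TGACG, the half-site of the cyclic AMP response element that CREB and ATF proteins bind, and TATAAA, the letters of the TATA box. Fos lies on chr12:85473640-85473939 (+), Fosb on chr7:19309996-19310295 (-), Jun on chr4:95052173-95052472 (-) and Junb on chr8:84978699-84978998 (-).
Fos: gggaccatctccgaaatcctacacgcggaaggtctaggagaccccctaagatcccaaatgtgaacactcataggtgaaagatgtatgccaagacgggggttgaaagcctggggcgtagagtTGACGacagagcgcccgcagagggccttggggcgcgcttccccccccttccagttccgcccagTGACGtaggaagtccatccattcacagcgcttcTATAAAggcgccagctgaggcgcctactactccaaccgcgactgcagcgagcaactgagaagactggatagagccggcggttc
Fosb: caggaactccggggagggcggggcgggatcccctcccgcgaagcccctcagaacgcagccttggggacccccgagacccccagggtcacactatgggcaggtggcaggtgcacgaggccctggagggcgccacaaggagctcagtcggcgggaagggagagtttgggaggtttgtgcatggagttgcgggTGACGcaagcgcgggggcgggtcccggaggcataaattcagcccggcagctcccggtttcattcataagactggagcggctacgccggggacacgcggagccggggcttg
Jun: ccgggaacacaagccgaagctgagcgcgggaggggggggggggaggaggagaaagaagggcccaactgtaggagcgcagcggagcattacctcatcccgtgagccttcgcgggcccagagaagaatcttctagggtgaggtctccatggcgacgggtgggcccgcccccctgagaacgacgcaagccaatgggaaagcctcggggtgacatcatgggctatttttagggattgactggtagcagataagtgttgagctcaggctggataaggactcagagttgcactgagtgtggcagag
Junb: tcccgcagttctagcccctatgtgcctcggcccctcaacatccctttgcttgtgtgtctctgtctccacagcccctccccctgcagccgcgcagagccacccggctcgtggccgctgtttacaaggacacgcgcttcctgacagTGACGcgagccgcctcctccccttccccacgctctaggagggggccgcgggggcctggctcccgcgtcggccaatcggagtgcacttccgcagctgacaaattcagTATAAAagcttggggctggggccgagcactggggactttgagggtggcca

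RefSeq promoters matched 6 of the 8 members, all but Egr1 and Ier2. Searched on both strands, TGACG was found in 5 of the 6 (Fos, Fosb, Junb, Atf3 and Dusp1) and in 20.8% of all 32841 promoters of this length. It began at position -129 and again at -66 from the start in Fos, at -60 in Fosb and at -106 in Junb, and Jun held none. The full palindrome TGACGTCA, which contains the half-site, was found in Dusp1 alone, against 1.79% of all promoters. TATAAA occurred in Fos, beginning at -33, and in Junb, beginning at position 1, at the annotated start and not upstream of it (13.6% of all promoters hold these letters). The GC box GGGCGG occurred in 5 of 6 (35.7% of all), every one but Junb. The AP-1 site TGANTCA (7.81% of all) and the CArG box bound by SRF (1.63% of all) matched 0 of the 6 windows. None of these motifs was in both promoters of the pair that rose (Jun, Junb) or fell (Fos, Fosb) and in neither of the other pair. A match is a string of letters, not a measured binding site. Sequence outside the windows was not searched, nor were the promoters of Egr1 and Ier2. A count of 0 therefore covers the 6 windows alone and does not show that a gene lacks the site.

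Per kilobase of counted length, the level order was Ier2, Dusp1, Junb, Egr1, Fos, Jun, Fosb and Atf3. Ier2 stood at 5.81 ± 1.44 CPM per kb (SD, n = 7), above Dusp1 in 7 of 7 libraries. Dusp1 (3.08 ± 0.503), Junb (2.69 ± 1.53), Egr1 (2.08 ± 0.593), Fos (1.81 ± 0.714) and Jun (1.80 ± 0.399) followed as a group whose neighbours in the order exceeded each other in only 4 of 7 libraries. Jun exceeded Fosb in 7 of 7, and Fosb (0.378 ± 0.154) and Atf3 (0.339 ± 0.0550) did not differ beyond their spread. Atf3 spans 13038 bases, so its fragments are diluted over a longer body than those of Ier2 (1523 bases) or Junb (1841 bases). Against the 15186 genes tested, Ier2 lay at percentile 91.8 per kb. Variation between libraries was wide for Junb, Fosb and Fos, whose biological coefficients of variation within lines (0.361, 0.332 and 0.254) lay at percentiles 98.0, 96.8 and 88.4 of tested genes, and ordinary for Dusp1 (0.156, percentile 44.3). That fit held line alone, so the coefficients include any difference between the replicate sets. The percentiles were not matched on level, and by mean CPM Junb, Fosb and Fos lay at percentiles 29.2, 21.1 and 32.4.

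Fos and Fosb were lower in replicates 3 and 4 than in replicates 1 and 2. Fos, the prototype early gene (chr 12, 85473900 to 85477270, mm10), stood at 6.84, 4.92, 4.21 and 3.16 CPM for replicates 1 to 4 of iXist-ChrX-Dom and 7.67, 10.3 and 5.66 CPM for replicates 1 to 3 of iXist-ChrX-Cast. Within each line, every library of replicates 3 and 4 lay below every library of replicates 1 and 2. That order rests on 2 against 2 libraries in iXist-ChrX-Dom and 2 against 1 in iXist-ChrX-Cast. The share of all genes that separate the sets within lines was not computed. With line as a covariate, Fos fell by 0.67 on the log2 scale in replicates 3 and 4 (SE 0.18; edgeR, BH-adjusted p = 0.0103). Fosb, a close homologue with a shorter splice form in neurons (chr 7, 19302695 to 19310045), stood at 4.08, 4.27, 1.33 and 2.4 CPM in iXist-ChrX-Dom and at 1.90, 3.36 and 2.10 CPM in iXist-ChrX-Cast. The sets separated in iXist-ChrX-Dom but overlapped in iXist-ChrX-Cast. Fosb fell by 0.86 (SE 0.26; edgeR, BH-adjusted p = 0.0200), and within iXist-ChrX-Dom alone by 1.15 (SE 0.27; edgeR, BH-adjusted p = 0.0132).

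Jun and Junb were higher in replicates 3 and 4. Jun, the founding AP-1 subunit (chr 4, 95049035 to 95052222), stood at 4.25, 4.59, 5.87 and 6.63 CPM in iXist-ChrX-Dom and at 4.64, 6.42 and 7.66 CPM in iXist-ChrX-Cast. Again the sets did not overlap within either line, and the share of all genes that separate so was not computed. Jun rose by a log2 fold change of 0.48 (SE 0.16; edgeR, BH-adjusted p = 0.0301), and by DESeq2 it did not pass the threshold of 0.05 (0.47, adjusted p = 0.0528). Junb, a Jun relative of weaker activating capacity (chr 8, 84976908 to 84978748), stood at 3.24, 3.05, 5.55 and 4.49 CPM in iXist-ChrX-Dom and at 2.81, 4.64 and 10.9 CPM in iXist-ChrX-Cast. The highest library, iXist-ChrX-Cast replicate 3, held 218 Junb fragments against 40 to 104 in the others. Junb rose by 1.05 (SE 0.21; edgeR, BH-adjusted p = 0.00156), by 0.68 within iXist-ChrX-Dom (SE 0.21; edgeR, BH-adjusted p = 0.0400) and by 1.51 within iXist-ChrX-Cast (SE 0.27; edgeR, BH-adjusted p = 0.00138).

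**Figure D1:**
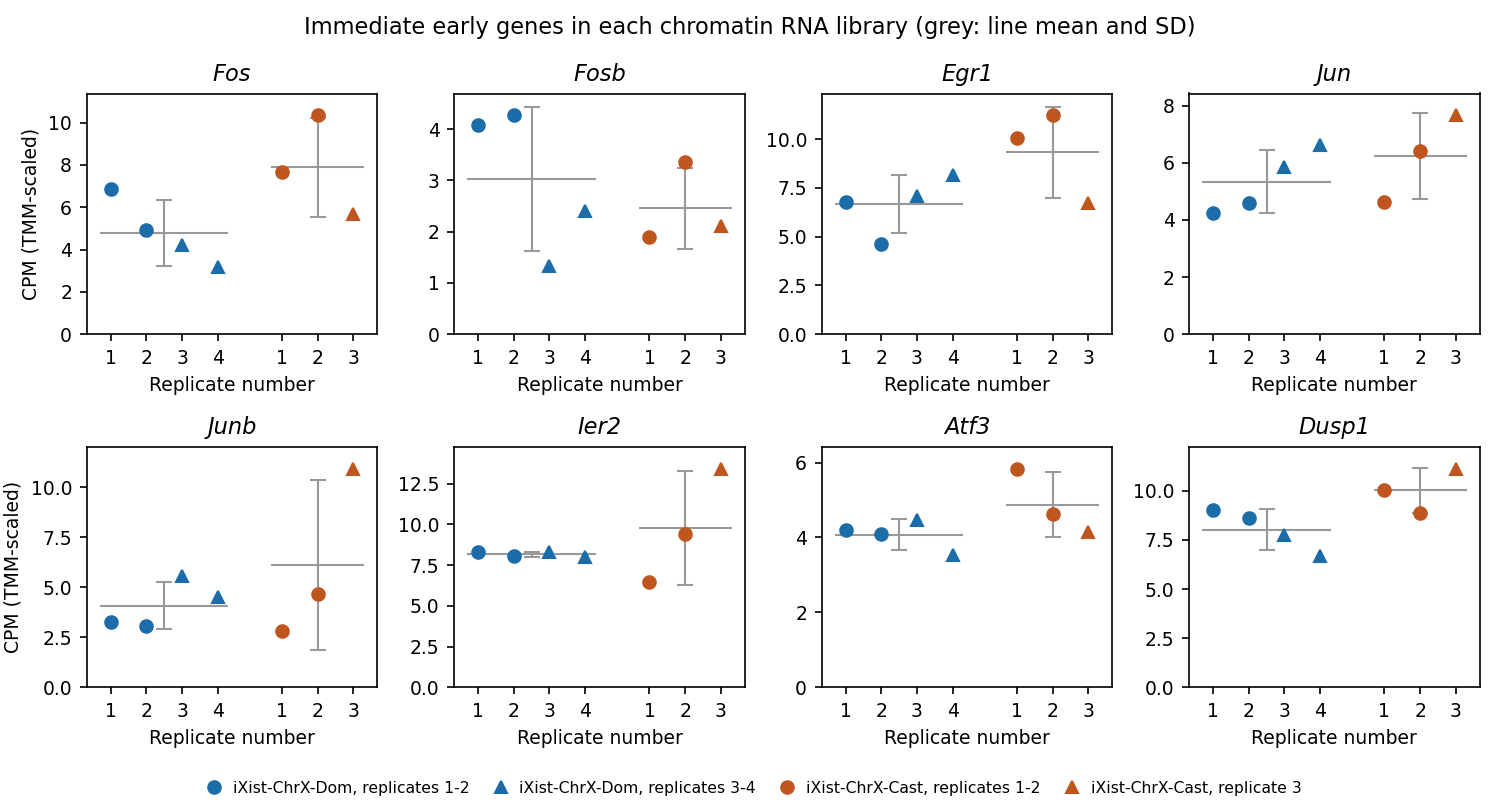
CPM of each immediate early gene (vertical axis, from 0) in each library (horizontal axis, replicate number), blue for iXist-ChrX-Dom and orange for iXist-ChrX-Cast, circles for replicates 1 and 2 and triangles for replicates 3 and 4, with the mean and SD of each line in grey. Within each line the Fos triangles lie below the circles and the Jun triangles above them, and Junb reaches 10.9 CPM in iXist-ChrX-Cast replicate 3.

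The remaining members showed no common shift between the sets. Egr1, which binds GC-rich promoters, stood at 6.75, 4.63, 7.09 and 8.16 CPM in iXist-ChrX-Dom and at 10.1, 11.2 and 6.71 CPM in iXist-ChrX-Cast. Its sets were ordered in opposite ways in the lines: replicates 3 and 4 were the higher ones in iXist-ChrX-Dom and replicate 3 the lowest in iXist-ChrX-Cast. The set difference of Egr1 was -0.0066 (SE 0.21; edgeR, BH-adjusted p = 0.986). Ier2 stood at 8.29, 8.05, 8.32 and 8.01 CPM in iXist-ChrX-Dom, which is less spread than counting alone would give, and at 6.47, 9.43 and 13.4 CPM in iXist-ChrX-Cast. Its set difference was 0.31 (SE 0.17; edgeR, BH-adjusted p = 0.176), and within iXist-ChrX-Cast Ier2 rose by 0.73 (SE 0.24; edgeR, BH-adjusted p = 0.0458). Atf3, which represses as a homodimer, ranged from 3.52 to 4.48 CPM in iXist-ChrX-Dom and from 4.16 to 5.84 CPM in iXist-ChrX-Cast, with a set difference of -0.16 (SE 0.17; edgeR, BH-adjusted p = 0.514). Dusp1 ranged from 6.68 to 9.03 CPM and from 8.87 to 11.1 CPM, with a set difference of -0.073 (SE 0.15; edgeR, BH-adjusted p = 0.736).

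In all, 4 of the 8 members passed the test between the sets, 2 higher and 2 lower, beside 30.3% of all genes tested. With 8 genes and this background, the count is not read as a result about the group. The median log2 fold change of the members was -0.040, beside 0.0088 over all genes. Within iXist-ChrX-Dom 2 members were called (Fosb and Junb, beside 18.7% of genes) and within iXist-ChrX-Cast also 2 (Junb and Ier2, beside 14.2%), where the lone replicate 3 is assumed to vary like replicates 1 and 2. By range over all 7 libraries, 0 of 8 members separated the sets, beside 29.4% of genes. Without iXist-ChrX-Cast replicate 3 only Fosb was called, and Junb was at 0.67 (SE 0.24; edgeR, BH-adjusted p = 0.0673). Leaving out iXist-ChrX-Dom replicate 1, 3 or 4 left 2 members called, and Jun kept its call only without iXist-ChrX-Dom replicate 2 or iXist-ChrX-Cast replicate 2. Within a single line neither Fos (-0.66 and -0.69) nor Jun (0.51 and 0.44) was called.

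The balance between Jun and Fos transcripts can be read within a library, where depth and scaling cancel. The sum of Jun and Junb CPM over the sum of Fos and Fosb CPM was 0.687, 0.832, 2.06 and 2.00 for replicates 1 to 4 of iXist-ChrX-Dom and 0.779, 0.807 and 2.39 for replicates 1 to 3 of iXist-ChrX-Cast. All 4 libraries of replicates 1 and 2 were below 1 and all 3 of replicates 3 and 4 were at or above 2.00. This grouping was made with the set differences known, so the ratio is a description and was given no test. It compares fragments over whole genes of unequal length, not molecules of protein. The family genes Jund (0.985 to 4.81 CPM), Fosl1 (2.50 to 3.96) and Fosl2 (5.83 to 9.54), which are not members, were left out. A ratio with these genes was not computed, so the values do not describe the families as a whole.

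**Figure D2:**
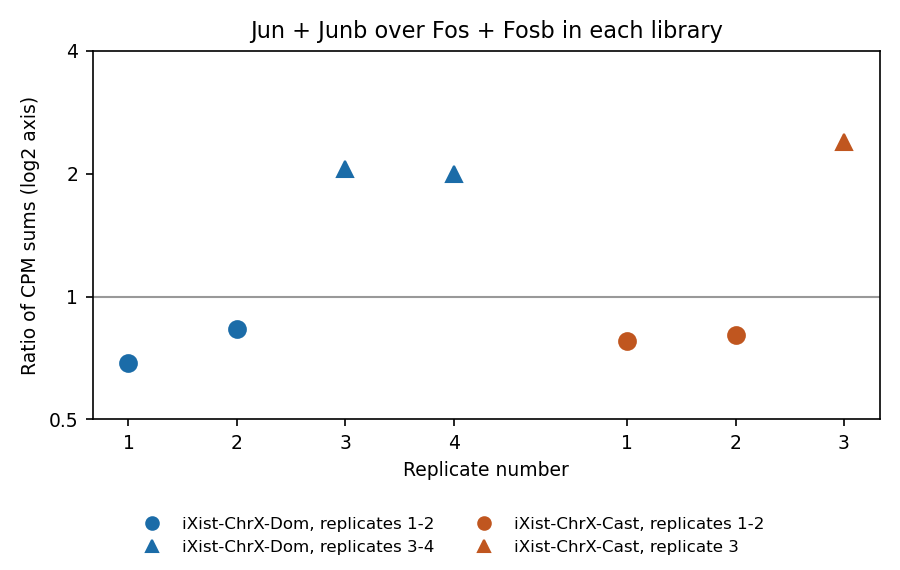
Ratio of summed Jun and Junb CPM to summed Fos and Fosb CPM (vertical log2 axis) in each library (horizontal axis, replicate number), coloured by line and shaped by replicate set. The circles of replicates 1 and 2 lie between 0.687 and 0.832 and the triangles of replicates 3 and 4 between 2.00 and 2.39 in both lines.

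The set difference itself was compared between the lines with an interaction term, which 0 of 8 members passed (beside 0.0132% of genes). DESeq2 also called 0, giving several members no adjusted p. At an unadjusted p under 0.05 there were 3: Egr1 (difference of the set changes, iXist-ChrX-Dom minus iXist-ChrX-Cast, 1.09, SE 0.32; edgeR, BH-adjusted p = 0.345), Junb (-0.85, SE 0.36) and Ier2 (-0.74, SE 0.29). For Egr1, the set change was 0.43 within iXist-ChrX-Dom and -0.68 within iXist-ChrX-Cast, and neither passed the test.

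The lines were compared next, which asks whether these cells, with Xist induced from opposite X chromosomes, differ in early gene transcription. Each line is a single clone, so the X that carries the induced Xist cannot be told apart from other differences between the clones. Of the 8 members, 0 were called between iXist-ChrX-Dom and iXist-ChrX-Cast (beside 2.92% of genes), 0 were called by DESeq2, and 1 had an unadjusted p under 0.05. That was Fos, at 4.78 ± 1.55 CPM (n = 4) and 7.89 ± 2.35 CPM (n = 3), a log2 fold change of -0.72 for iXist-ChrX-Dom over iXist-ChrX-Cast (SE 0.28; edgeR, BH-adjusted p = 0.216). Egr1 (-0.49, SE 0.23), Junb (-0.61, SE 0.40), Dusp1 (-0.32, SE 0.16), Ier2 (-0.27, SE 0.22), Atf3 (-0.25, SE 0.19) and Jun (-0.24, SE 0.23) had the same sign, and Fosb the other (0.30, SE 0.38). The median of the members was -0.29, beside -0.0028 over all genes, and 7 of 8 were negative, beside 50.5% of genes. Genes up to 5 kb long, the length of all members but Fosb and Atf3, had a median of -0.12 over 1741 genes.

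Taking the sets into account called some members between the lines. With replicate set as a covariate, Fos (-0.62, SE 0.17; edgeR, BH-adjusted p = 0.0219) and Junb (-0.68, SE 0.21; edgeR, BH-adjusted p = 0.0359) were lower in iXist-ChrX-Dom, beside 15.8% of genes called. With the replicate number as a block, which assumes that same-numbered libraries pair, neither was called (Fos -0.57, edgeR, BH-adjusted p = 0.0596, and Junb -0.53, edgeR, BH-adjusted p = 0.132). Egr1, not called with the set covariate (edgeR, BH-adjusted p = 0.123), was lower under the block (-0.60, SE 0.20; edgeR, BH-adjusted p = 0.0483), beside 11.8%. Within replicates 1 and 2 alone, Egr1 was again lower (-0.90, SE 0.21; edgeR, BH-adjusted p = 0.0177), beside 11%. Its libraries did not overlap there (4.63 and 6.75 CPM against 10.1 and 11.2 CPM). The share of genes that separate 2 against 2 libraries was not computed. In the other set the order was reversed, with iXist-ChrX-Dom replicates 3 and 4 at 7.09 and 8.16 CPM and iXist-ChrX-Cast replicate 3 at 6.71 CPM. Over all 7 libraries the lines overlapped for each of the 8 members, whereas 16.0% of genes separated the lines. Without iXist-ChrX-Cast replicate 3, Junb and Ier2 had the opposite sign (0.11 and 0.031).

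The summed level of the 8 genes was 46.7, 42.2, 44.6 and 43.1 CPM in iXist-ChrX-Dom and 49.5, 58.9 and 61.8 CPM in iXist-ChrX-Cast, so the sums did not overlap between the lines although no single member separated them. How often sums of other genes separate the lines was not computed. Of the lists described below, the other early transcription factors (178 to 200 and 205 to 225 CPM) did not overlap either. Nor did the early genes that are not transcription factors (436 to 479 and 506 to 595 CPM). In the transcription factor sum, Klf10 itself separated the lines, at 29.0 to 43.6 CPM and 48.6 to 63.7 CPM. The sum without Klf10 was not computed. Klf6 and Mcl1, the largest genes of these sums, overlapped between the lines. These sums are therefore not read as a shift of every gene in the lists. Sums of the ERK feedback genes, the upstream genes and the bZIP partners overlapped. Separation of the lines was not particular to early genes. The sums of the heat shock genes and of the neural markers, given below, did not overlap either, the neural sum being higher in iXist-ChrX-Dom. The 9 heat shock genes, which respond to another kind of stress, summed to 2659 to 3192 CPM in iXist-ChrX-Dom and 3494 to 4582 CPM in iXist-ChrX-Cast, a sum made up mainly of Hsp90aa1 and Hspa8. Dnajb1 was ordered the other way, at 10.7 to 12.3 CPM and 7.39 to 10.6 CPM. Of 8 tested, 1 was called, Hsph1 (a chaperone of the HSP110 family), at 108 and 221 CPM on average (log2 fold change -1.04, SE 0.091; edgeR, BH-adjusted p = 0.000778), and 5 had an unadjusted p under 0.05. Hsph1 lies on chromosome 5, which the allelic tests below leave out of the balanced autosomes. The part of a chromosome-wide imbalance in its line difference was not tested. The neural markers summed to 33.7 to 56.3 CPM in iXist-ChrX-Dom and 28.6 to 32.6 CPM in iXist-ChrX-Cast, and 0 of 3 tested were called (1 with an unadjusted p under 0.05). Of the mESC markers 1 of 10 was called, Tdgf1 (-0.52, SE 0.11), with sums of 1625 to 1970 CPM and 1861 to 2060 CPM, and of the primitive endoderm markers 0 of 4. The fibroblast list, which would mark remaining feeders, summed to 78.7 to 88.7 CPM and 76.3 to 85.8 CPM, with 0 of 11 called. In the primitive endoderm and fibroblast lists, 0 genes had an unadjusted p under 0.05. The part of stress or of other cell types in the line values was not tested, and in bulk RNA fewer cells of a type and less RNA per cell cannot be told apart.

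**Figure D3:**
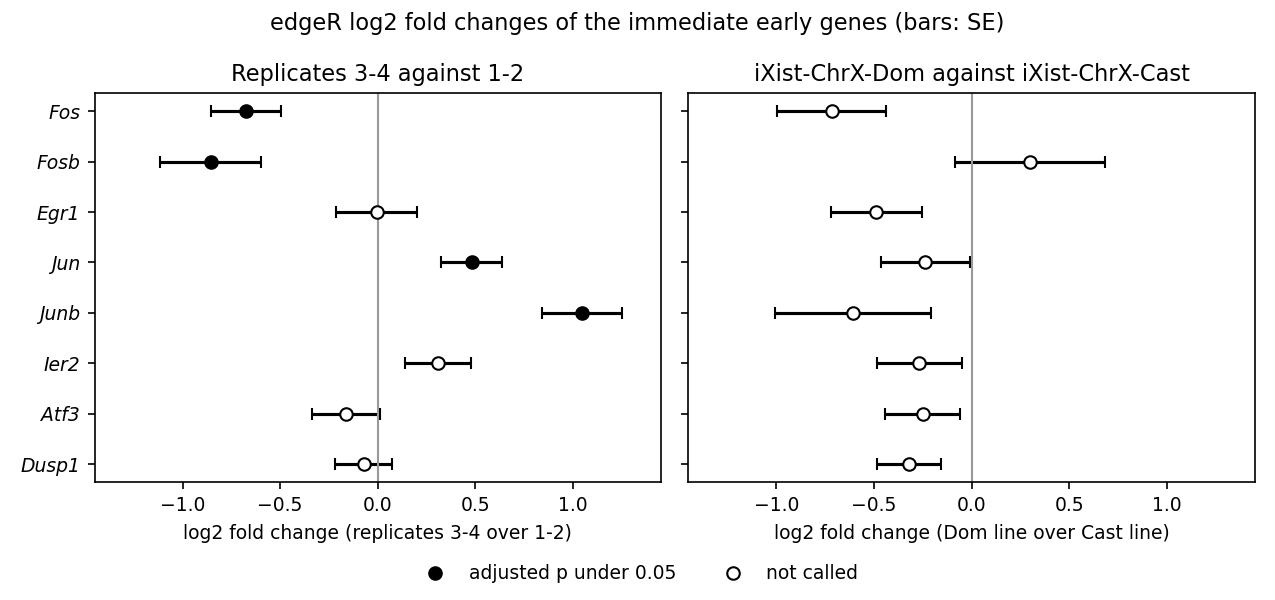
edgeR log2 fold changes (horizontal axis, bars are SE) of the 8 genes (vertical axis) for replicates 3 and 4 over 1 and 2 with line as a covariate (left) and for iXist-ChrX-Dom over iXist-ChrX-Cast (right), filled where the adjusted p was under 0.05. On the left Fos and Fosb are filled below 0 and Jun and Junb above 0, and on the right no point is filled and 7 of 8 lie below 0.

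Other early response genes were examined from lists chosen with earlier results of these libraries known. Among 15 other early transcription factors, 11 passed the filter on low counts, and between the sets 3 rose and 2 fell, beside 30.3% of all genes called. The NR4A orphan nuclear receptors went in opposite directions. Nr4a1 (Nur77) was at 4.25, 4.06, 7.52 and 7.30 CPM in iXist-ChrX-Dom and 4.29, 4.69 and 10.3 CPM in iXist-ChrX-Cast (log2 fold change 0.98, SE 0.15; edgeR, BH-adjusted p = 0.000232). Nr4a2 (Nurr1) was at 20.7, 21.0, 7.41 and 5.72 CPM in iXist-ChrX-Dom and 21.5, 22.1 and 7.81 CPM in iXist-ChrX-Cast, and fell by 1.59 (SE 0.13; edgeR, BH-adjusted p = 1.96e-06). For both genes the sets did not overlap over the 7 libraries, which held for 29.4% of all genes. Csrnp1 (0.38) and Klf6 (0.27) rose and Klf10, a TGF-beta inducible Krüppel-like factor, fell by 0.34, each passing the test. The list's median was 0.23, beside 0.0088 over all genes.

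Among 18 early genes that are not transcription factors, 16 were tested, and 4 rose and 0 fell between the sets, a share below the 30.3% of all genes (6 had an unadjusted p under 0.05; median 0.047). Arc, a capsid-like protein of synapses, was at 2.37, 1.95, 5.07 and 4.69 CPM in iXist-ChrX-Dom and 2.39, 3.47 and 6.16 CPM in iXist-ChrX-Cast, and rose by 1.12 (SE 0.18; edgeR, BH-adjusted p = 0.00043). Zfp36, which binds AU-rich elements and speeds the decay of early mRNAs, rose by 0.84 (SE 0.22), from a mean of 1.99 to 3.52 CPM. Plk3, a stress-responsive kinase, rose by 0.68 (SE 0.11), from 11.2 to 16.9 CPM. Between the lines, 0 of the 11 and 0 of the 16 genes of both lists were called (2 and 4 with an unadjusted p under 0.05). Their medians were -0.17 and -0.21, of the same sign as that of the 8 members. This sign was not particular to early genes. Medians were also negative for the heat shock (-0.42), primitive endoderm (-0.30), ERK feedback (-0.25) and mESC (-0.21) lists. Those of the upstream genes (0.070), bZIP partners (0.11), fibroblast (0.20) and neural (0.50) lists were positive.

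Of 23 kinases and transcription factors that act upstream, all were tested, and 5 rose and 3 fell between the sets, a share near the 30.3% of all genes. Those that rose included Rps6ka1, which encodes the ERK-activated kinase RSK1 (0.81, SE 0.090, from 32.5 to 55.8 CPM). Mkl1, an SRF coactivator (0.63, SE 0.10), and Map2k1, the kinase MEK1 that activates ERK (0.54, SE 0.093), rose too. Mapk8, which encodes the JNK1 kinase that phosphorylates Jun, fell by 0.39 (SE 0.090), Rps6ka3, encoding RSK2, by 0.31 (SE 0.10) and Creb1 by 0.31 (SE 0.089). Between the lines 0 of 23 were called and 0 had an unadjusted p under 0.05. Of the 8 genes of ERK feedback, Spry4 rose between the sets (0.92, SE 0.095), whereas Spred1 fell by 0.62 (SE 0.092) and Dusp6, an ERK phosphatase, by 0.53 (SE 0.11). Between the lines, 1 of these 8 was called: Spry2, an inhibitor of receptor tyrosine kinase signalling, at 19.6 to 23.7 CPM in iXist-ChrX-Dom and 31.5 to 35.3 CPM in iXist-ChrX-Cast (-0.56, SE 0.12; edgeR, BH-adjusted p = 0.0416). Spry2 lies on chromosome 14, which is also left out of the balanced autosomes, and the part of a chromosome-wide imbalance was not tested. Of 10 bZIP genes whose products can pair with Fos or Jun, 8 were tested, with Atf7 alone called between the sets (0.26, SE 0.085) and 0 between the lines (3 with an unadjusted p under 0.05).

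Cell type markers called between the sets are given beside the same 30.3% of all genes, and the shares of the mESC and fibroblast lists did not exceed it. Of 10 mESC markers, 3 rose (Pou5f1 0.50, Klf2 0.40, Zfp42 0.35) and 0 fell, and their sum ranged from 1625 to 2060 CPM in replicates 1 and 2 and from 1952 to 2044 CPM in replicates 3 and 4. Of 4 primitive endoderm markers tested, Gata4 (0.78) and Gata6 (0.73) rose and Dab2 fell by 0.68, and the list sum was 48.1 to 55.1 CPM against 37.6 to 40.3 CPM. Of 3 neural markers tested, Tubb3 rose (0.43), and Pax6 fell by 0.97 and Nes by 0.67, with sums of 28.6 to 56.3 CPM and 31.7 to 35.8 CPM and Sox1 at 0. Of 11 fibroblast markers tested, Postn (1.24) and Prrx1 (0.59) rose and Col3a1 fell by 0.67, with sums of 79.1 to 88.7 CPM and 76.3 to 86.6 CPM. Of the 8 heat shock genes tested, 0 were called between the sets (1 with an unadjusted p under 0.05). The part of other cell types in the set differences of the early genes was not tested.

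Allelic counts were compared next, as the share of allelic fragments assigned to Cast. Of the 8 members, 6 had at least 10 allelic fragments in every library. Fosb had 9 in iXist-ChrX-Cast replicate 1, and Jun had 2 to 5 per library, too few for any statement. On autosomes without an imbalance the median Cast share was 46.4% to 46.9% per library, and this level was the reference of the tests.

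Between the lines, 1 of the 6 members was called, beside 17.9% of genes. This was Ier2 (chr 8, 84661330 to 84662852), with Cast shares of 67.0%, 72.1%, 64.9% and 68.9% in iXist-ChrX-Dom and 33.3%, 49.4% and 59.0% in iXist-ChrX-Cast. The lines did not overlap, and the log2 ratio of Cast to Dom differed by 1.07 (SE 0.30; edgeR, BH-adjusted p = 0.0128). Without iXist-ChrX-Cast replicate 1 the difference was 0.80 and was not called (edgeR, BH-adjusted p = 0.0662). Junb lies on the same chromosome, and differed by 0.82 (SE 0.43; edgeR, BH-adjusted p = 0.259), with pooled shares of 62.4% of 125 fragments and 48.8% of 121. The genes around both had the same direction: genes within 10 Mb of Ier2 had a median share of 63.1% in iXist-ChrX-Dom but 46.6% in iXist-ChrX-Cast, and their median difference was 0.96 over 125 genes. In total counts, the neighbours of Ier2 had a median log2 fold change of 0.32 for iXist-ChrX-Dom over iXist-ChrX-Cast, whereas Ier2 (-0.27) and Junb (-0.61) had the opposite sign, neither called. By allele, Ier2 was at 16.6 ± 2.88 on Cast and 6.93 ± 1.90 on Dom in iXist-ChrX-Dom (mean ± SD, CPM scaled to the fragments of that allele on balanced autosomes), and at 15.9 ± 9.28 and 14 ± 1.82 in iXist-ChrX-Cast. The means of the lines were thus close on Cast and further apart on Dom, a difference given as a description.

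Between the alleles over both lines, 3 of 6 members were called, beside 65.4% of genes. Fos was higher on Cast (log2 ratio 1.36, SE 0.21; edgeR, BH-adjusted p = 6.68e-06), with pooled shares of 65.7% of 102 fragments in iXist-ChrX-Dom and 73.2% of 97 in iXist-ChrX-Cast. Its neighbours on chromosome 12 had the same imbalance, with median shares of 69.7% and 70.3% and a median log2 ratio of 1.44 over 132 genes. Ier2 was higher on Cast (0.74, SE 0.15; edgeR, BH-adjusted p = 0.000188), where its neighbours had a median of 0.48. Dusp1 (chr 17, 26505590 to 26508472) was lower on Cast (-0.45, SE 0.14; edgeR, BH-adjusted p = 0.00929), with pooled shares of 39.1% and 39.5%, whereas its 259 neighbours were balanced (47.3% and 47.5%; median log2 ratio 0.050). The difference between Dusp1 and its neighbours was not tested, and without iXist-ChrX-Cast replicate 1 Dusp1 was at -0.30 and was not called (edgeR, BH-adjusted p = 0.0625). Junb (0.48, SE 0.22), Egr1 (-0.35, SE 0.20) and Atf3 (-0.096, SE 0.14) were not called.

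Whether a set difference was on both alleles could be tested for the same 6 members, and 0 were called for a change of Cast share between the sets, beside 1.24% of genes (2 had an unadjusted p under 0.05, Junb and Dusp1). Mean Fos was lower in replicates 3 and 4 than in 1 and 2 on both alleles, at 9.03 ± 3.64 and 4.43 ± 1.89 on Cast and 3.44 ± 0.706 and 1.70 ± 0.941 on Dom (SD, n = 4 and n = 3, in the same allelic CPM). Junb was at 3.85 ± 1.82 and 11 ± 2.55 on Cast and at 4.19 ± 1.40 and 6.04 ± 3.94 on Dom. Its Cast share went from 50.0% and 52.4% to 66.7% and 71.4% within iXist-ChrX-Dom, and from 23.5% and 51.5% to 53.5% within iXist-ChrX-Cast (difference of the log2 ratio 0.88, SE 0.40; edgeR, BH-adjusted p = 0.366). With 17 to 71 allelic fragments per library for Junb, the lack of a call does not show that its Cast share stayed the same.

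**Figure D4:**
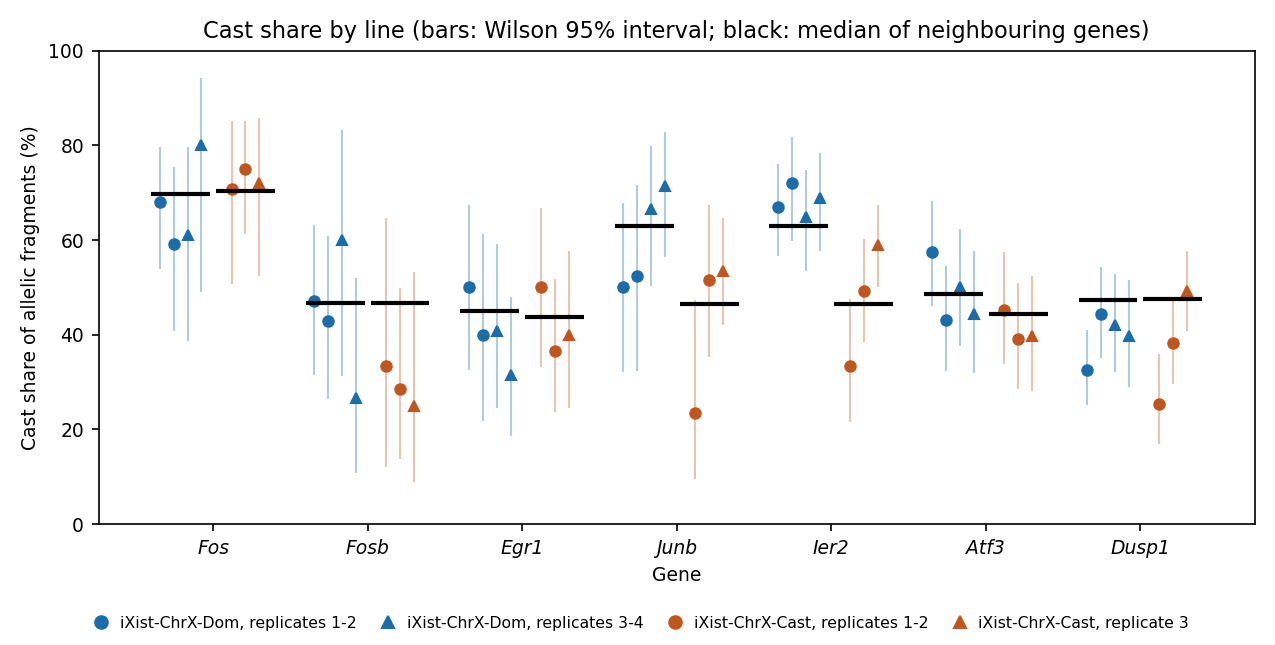
Cast share of allelic fragments (vertical axis, percent) of 7 members (horizontal axis, Jun left out for lack of fragments) in each library, blue for iXist-ChrX-Dom and orange for iXist-ChrX-Cast, triangles for replicates 3 and 4, with Wilson 95% intervals that cover counting error only. Black lines are the median of genes within 10 Mb in each line, which differ between the lines for Junb and Ier2 (63.1% and 46.6%) and lie near 70% for Fos.

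The 5 other genes whose log2 CPM followed the mean of the 8 members most closely over the 7 libraries were Aldoa (Pearson r = 0.982), Timm10 (0.972), Rangrf (0.969), Otx2 (0.964) and Ndufa6 (0.961), out of 10718 candidates. These are a glycolytic enzyme, a mitochondrial import factor, a Ran cofactor, a homeodomain factor of primed pluripotency and a respiratory complex I subunit. With 7 libraries and this many candidates, values of this size are a description of likeness only, and points share line, replicate set and depth.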

How the data were processed

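ChrRNA-seq libraries of 2 mESC lines were analysed (n = 4 and n = 3). The authors removed ribosomal reads with bowtie2 2.3.2, aligned the rest with STAR 2.4.2a to N-masked mm10, split alleles with SNPsplit and counted stranded fragments with featureCounts 1.5.2 over each whole transcript with its introns. The deposited count files hold raw counts for all, Cast and Dom fragments. The authors' allelic ratio tables hold the Xi fraction of X-linked genes, used only to check which allele column is Cast.

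Counts were tested with edgeR 4.0.16 (filterByExpr, TMM, quasi-likelihood F test, two-sided, Benjamini-Hochberg over all genes tested, threshold 0.05), for line, for replicate set with line as covariate, and for their interaction. Cast and Dom counts were tested with a sample block, scaled on balanced autosomes (all but 1, 5, 8, 12 and 14), for genes with at least 10 allelic fragments in every library. Neighbours were genes within 10 Mb. DESeq2 1.42.0 was an alternative, and tests were tested on simulated data. R 4.3.3 and Python 3.11.15 were used. Log2 CPM used a pseudocount of 0.5.

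All 8 members were named with every value, of other lists at most the 3 called genes of largest change in each direction, and the 5 most similar genes. Members and lists were chosen with earlier results of these data known. Same-numbered libraries deviated together (r = 0.329, 0.275 and 0.466 for replicates 1, 2 and 3). Other numbers of the same set did so about as closely (r = 0.323, 0.384 and 0.505). These values show likeness within the sets and do not establish pairing by number, which the replicate block assumes. Fragments had no molecular identifiers, so intervals cover counting error only.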

Additional observations from a re-analysis of the deposited data

How the results depend on the processing

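DESeq2, its size factors, scaling on balanced autosomes and no filter on low counts changed no member's call between the lines or sets, except Jun between the sets by DESeq2. Of all member values under the alternatives, 424 kept direction and side of the threshold, 22 lost and 8 gained the call, and 31 changed sign. The cause of none was tested, beyond the fewer samples of the fits that leave some out.

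Members called between the lines numbered 2 with the set covariate, 1 with the replicate block and 1 within replicates 1 and 2. All genes called rose from 443 to 1094 by DESeq2, 2398 with the covariate, 1794 with the replicate block and 1685 within replicates 1 and 2. They fell to 58 without iXist-ChrX-Dom replicates 3 and 4, a choice made after seeing the data, and ranged from 18 to 1206 without each library. Between the sets, 1 member was called without the line covariate, 2 within each line, and 1 to 4 without each library, and all genes called numbered 2355, 2851 within iXist-ChrX-Dom, 2188 within iXist-ChrX-Cast and 2518 to 4447 without each library. The interaction called 2 genes, 28 by DESeq2, 7 with its size factors, 147 with no filter and 1 to 48 without each library, and could not be fitted without iXist-ChrX-Cast replicate 3. For the Cast share, 0 to 1 members were called between the lines without each library, and 66 to 165 genes between the sets against 154. The replicate block changed no other call.

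Signs changed only for values that were not called, and the ranges that follow are over fits without each library. Between the lines these were Ier2 (0.029 within replicates 1 and 2, range -0.48 to 0.031) and Junb (-0.93 to 0.11). Between the sets they were Egr1 (0.43 within iXist-ChrX-Dom, range -0.24 to 0.43) and Dusp1 (0.23 within iXist-ChrX-Cast, range -0.29 to 0.032). In the interaction they were Fos (-0.0013 with no filter, range -0.21 to 0.26) and Jun (-0.20 to 0.25). In the Cast share by line they were Dusp1 (-0.034 with TMM, range -0.29 to 0.41) and Egr1 (0.082 with the replicate block, 0.20 within replicates 1 and 2, range -0.30 to 0.13). By set they were Atf3 (-0.39 to 0.050), Fos (-0.19 to 0.26) and Ier2 (-0.15 to 0.53). Depth kept Jun and Fosb out of the allelic tests.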
